A study of Mus musculus with 9 samples.

Results

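RNA of 9 genes of the tumour necrosis factor (TNF) system was examined in mouse testicular peritubular myoid cells after heat. The genes are 4 ligands (Tnfsf18, Tnfsf9, Tnfsf12 and Tnfsf13b) and 5 receptors (Tnfrsf1a, Tnfrsf1b, Tnfrsf11b, Tnfrsf12a and Fas). They were picked by symbol from a table in which 17559 genes had values, all 9 were present, and all 9 were among the 11460 genes tested. The choice was made with the values of these same libraries known, in particular the level of Tnfsf18 at 1 h, so the differences of the 9 genes are given as descriptions, with an SE and without a p-value. The cells were primary C57BL/6J cultures, grown in DMEM/F12 with 10% fetal bovine serum at 37 °C in every group. One set of cells was held at 42 °C in a water bath for 30 min, returned to the incubator and collected 1 h after heat (3 libraries), a second was treated alike and collected 6 h after heat (3 libraries), and untreated cells served as control (3 libraries). The labels number the replicates without saying whether they are separate animals or cultures, so the spread between libraries may be technical.

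TNF family ligands are mostly membrane proteins that can be shed, and they bind receptors that cluster in groups of subunits. Receptors with a death domain, such as Fas and Tnfrsf1a, can start caspase activation. Many receptors of the family lead to NF-kappaB and MAP kinase signalling through TRAF adaptors. Several ligand and receptor pairs of the family are known as co-stimulators of T and B cells. In the testis, TNF is known as a product of macrophages and germ cells that acts on somatic cells.

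Depth was alike in all libraries, an estimated 18920000 to 19840000 reads per library. Values are FPKM, fragments per kilobase of transcript scaled to library size, so levels are per length and relative to the rest of the library. Scaling matters: the median log2 difference of all genes at 1 h against control was -0.17 as deposited and -0.01 after median-of-ratios scaling. The 7 contractile markers of myoid cells summed to between 3633 and 5338 FPKM in every library. Markers of other cells varied by library: the sum of 12 Sertoli markers was 4086 FPKM in control replicate 3 and at most 971 elsewhere, and the sum of 12 macrophage markers was 204 and 280 FPKM in 1 h replicates 2 and 3, 286 and 252 in 6 h replicates 1 and 2, and 50.7 to 106 in the other 5. The 8 Leydig markers summed to 872 to 2030 FPKM at 1 h, 1400 to 2032 FPKM at 6 h and 910 to 2139 FPKM in control cells, with Insl3 from 181 to 1607 FPKM. Of these 8, 4 stayed below 1 FPKM in every library: Cyp17a1, Hsd3b6, Lhcgr and Hsd17b3. The sum of 8 endothelial markers was highest in control replicate 1, at 103 FPKM, and 31.8 to 72.1 elsewhere. Of 9 lymphocyte markers, 8 had values, and all 8 stayed below 1 FPKM in every library. In bulk RNA, fewer cells of a type and less RNA per cell cannot be told apart.

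Tnfsf18, the ligand of the T cell co-stimulatory receptor Tnfrsf18, lies on chromosome 1 (mm10, 161494657 to 161505290, plus strand, NCBI gene 240873), has 1 transcript of 2064 bases in the table, and overlaps no other annotated gene. Its start region is shown because it is the gene of the 9 whose RNA differed most with heat. The region of Fas, whose levels at 1 h and 6 h did not overlap, is set beside it, with the regions of Chac1 and Bag3, which followed Tnfsf18 most closely among genes with a promoter entry and whose values are given after it. Each sequence runs from 250 bases before to 50 bases after the start site (RefSeq, GRCm38.p6), and capitals mark matches to the motifs named afterwards.
Tnfsf18 (chr1:161494407-161494706, plus strand): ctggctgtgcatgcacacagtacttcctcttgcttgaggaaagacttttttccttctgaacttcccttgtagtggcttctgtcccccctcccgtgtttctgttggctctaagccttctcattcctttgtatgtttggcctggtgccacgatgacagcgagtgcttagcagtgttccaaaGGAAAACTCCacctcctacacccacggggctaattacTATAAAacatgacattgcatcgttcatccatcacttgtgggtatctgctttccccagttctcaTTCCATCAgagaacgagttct
Fas (chr19:34290409-34290708, plus strand): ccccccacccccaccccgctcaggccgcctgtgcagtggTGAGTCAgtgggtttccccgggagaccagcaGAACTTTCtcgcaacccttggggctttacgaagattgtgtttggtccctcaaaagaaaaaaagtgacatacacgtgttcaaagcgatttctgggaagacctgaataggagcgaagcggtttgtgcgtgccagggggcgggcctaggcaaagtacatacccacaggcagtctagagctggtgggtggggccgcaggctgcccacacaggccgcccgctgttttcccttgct
Chac1 (chr2:119350992-119351291, plus strand): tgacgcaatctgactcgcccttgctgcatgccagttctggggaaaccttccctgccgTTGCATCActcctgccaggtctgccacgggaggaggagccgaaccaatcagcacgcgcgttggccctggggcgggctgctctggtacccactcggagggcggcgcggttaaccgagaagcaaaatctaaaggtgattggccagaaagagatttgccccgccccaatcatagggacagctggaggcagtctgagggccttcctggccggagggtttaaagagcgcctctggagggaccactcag
Bag3 (chr7:128523333-128523632, plus strand): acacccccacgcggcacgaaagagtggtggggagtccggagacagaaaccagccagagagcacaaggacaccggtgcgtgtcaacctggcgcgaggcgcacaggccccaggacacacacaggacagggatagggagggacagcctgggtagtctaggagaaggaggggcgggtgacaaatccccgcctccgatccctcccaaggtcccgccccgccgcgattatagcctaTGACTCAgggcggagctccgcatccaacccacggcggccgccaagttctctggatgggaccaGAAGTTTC
The motifs were searched on both strands: the heat-shock element with 3 units (GAA and TTC in turn, with NN between units), a pair of such units (GAANNTTC or TTCNNGAA, which the 3-unit element contains), AP-1 (TGANTCA), CRE (TGACGTCA), the core of the ATF4 element (TGATGNAA), the kappaB decamer and TATAAA. Of the 9 genes, 6 had an entry (Tnfsf18, Tnfsf13b, Tnfrsf1a, Tnfrsf1b, Tnfrsf12a and Fas). Tnfsf18 held TATAAA with its first base at position -34, a kappaB decamer at -71 and an ATF4 core at 30, and none of its matches overlapped. Fas held an AP-1 match at -211 and a pair of heat-shock units at -180, while Tnfsf13b held an AP-1 match and Tnfrsf1a, Tnfrsf1b and Tnfrsf12a held no match. Among 32851 promoter windows of this length, TATAAA was in 13.6%, the kappaB decamer in 11.2%, the ATF4 core in 3.97%, AP-1 in 7.81%, CRE in 1.79%, the heat-shock unit pair in 15.1% and the 3-unit element in 0.603%. Chac1 held an ATF4 core at -193, and Bag3 held an AP-1 match at -20 and a unit pair at 43. That pair ends on the last base of its window, so a further unit after it could not be seen. None of these windows held the 3-unit element or CRE, and a match or its lack describes the letters of this window alone.

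Tnfsf18 had 10.8, 17.9 and 16.5 FPKM 1 h after heat, 1.94, 0.35 and 0.84 FPKM 6 h after heat, and 0.64, 0.30 and 0.72 FPKM in control cells. Every 1 h library stood above every other library, and the 6 h libraries overlapped the controls. These values rest on an estimated 425, 700 and 640 reads at 1 h, 75, 14 and 33 reads at 6 h, and 25, 12 and 28 reads in control cells, so the low levels are the least precise. The mean was 15.1 ± 3.8 FPKM at 1 h and 0.553 ± 0.223 FPKM in control cells (SD, n = 3 each), a ratio of 27.2. At 6 h it was 1.04 ± 0.81 FPKM (SD, n = 3), a ratio to control of 1.89 and to 1 h of 0.0693. The excess over control rested on 6 h replicate 1, without which the log2 difference given next was 0.03.

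On the log2(FPKM + 1) scale, which understates changes of low genes, Tnfsf18 differed from control by 3.35 (SE 0.30) at 1 h and by 0.33 (SE 0.30) at 6 h, and 6 h differed from 1 h by -3.02 (SE 0.30). Comparisons that share a group share its libraries. Tnfsf18 was the 1 gene of the 9 called at 1 h against control and the 1 called at 6 h against 1 h, beside 0.157% and 0.279% of all genes (limma, adjusted p below 0.05), and nothing is read from this count since the gene was chosen on it. At 6 h against control 0 of the 9 genes were called, beside 0% of all genes (limma). At an unadjusted p below 0.05, 1 of the 9 was higher and 1 lower in limma, beside 1.27% and 3.35% of all genes. Nothing is read from these counts either, since the 9 genes were chosen with their values known. Tnfsf18 reached the filter of 1 FPKM in 4 libraries, the 3 at 1 h and 1 at 6 h, so it was tested only because it was high after heat.

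The sum of the 8 lymphocyte markers was 1.2, 1.39 and 0.86 FPKM at 1 h, 0.80, 0.53 and 0.69 FPKM at 6 h, and 0.41, 0.61 and 0.66 FPKM in control cells. Among its genes Cd3e, a subunit of the T cell receptor complex, had 0.70, 0.85 and 0.26 FPKM at 1 h and at most 0.22 FPKM elsewhere. The macrophage sum was 64.3, 204 and 280 FPKM at 1 h, where Tnfsf18 stood at 10.8, 17.9 and 16.5 FPKM. At 6 h the macrophage sum was 286, 252 and 50.7 FPKM, beside 1.94, 0.35 and 0.84 FPKM of Tnfsf18. In control cells it was 66.8, 59.5 and 106 FPKM, beside 0.64, 0.30 and 0.72 FPKM of Tnfsf18. The sum of 6 fibroblast markers was 1399 to 1932 FPKM at 1 h and 546 to 972 FPKM in control cells, without overlap. At 6 h this sum was 1329, 2408 and 640 FPKM, the highest in 6 h replicate 2, the 6 h library with least Tnfsf18. The collagen genes Col1a1 and Col3a1 were its largest members in every library, and Dpt and Lum reached at most 2.67 and 4.14 FPKM. Between 1 h and control cells Pdgfra and Col1a1 overlapped, while Dpt, Dcn, Lum and Col3a1 did not. The part of these cell types in the values of Tnfsf18 was not tested.

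**Figure D1:**
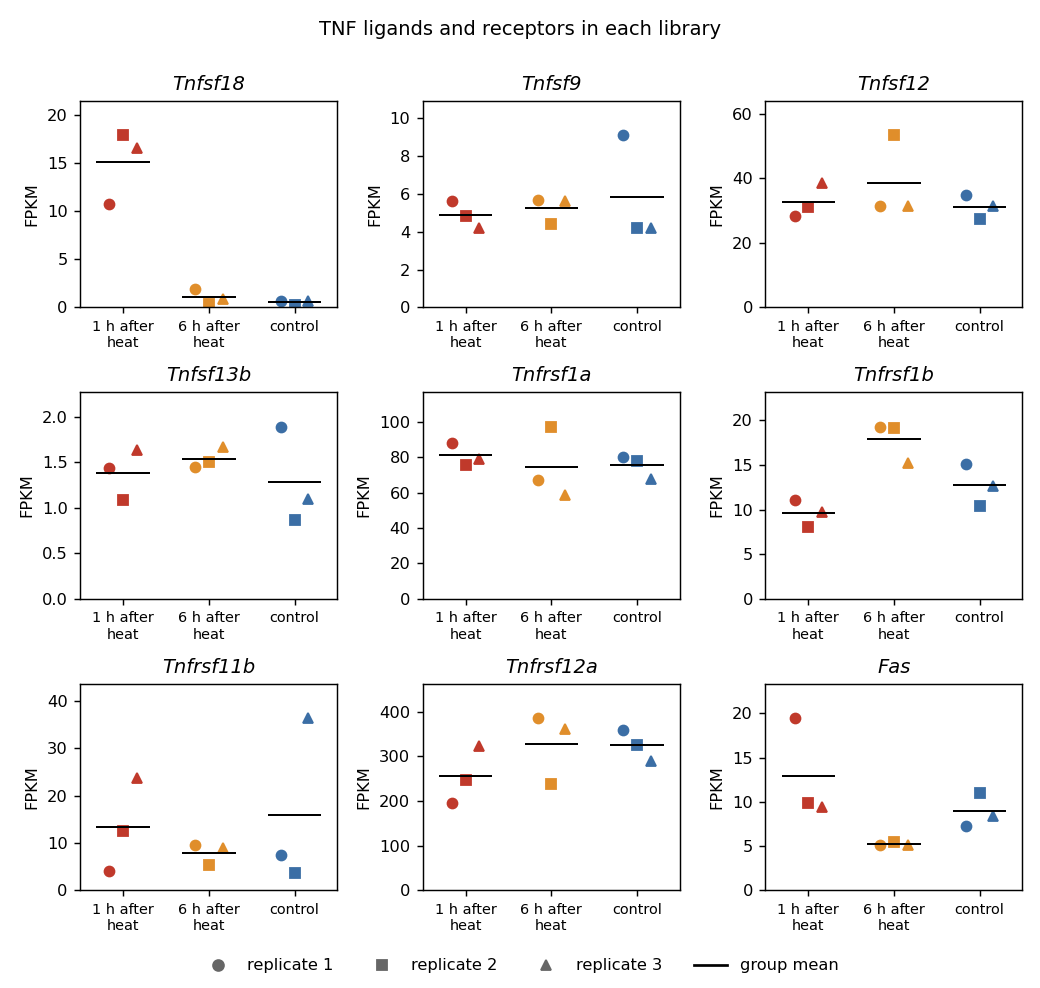
FPKM of the 9 genes (y axis, from 0, a scale of its own for each gene) in each library by group, with replicates as symbols and group means as bars. Tnfsf18 lay between 10.8 and 17.9 FPKM at 1 h and below 2 FPKM elsewhere, while most other genes overlapped between groups.

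The 5 genes whose pattern was most like that of Tnfsf18 (Pearson correlation of log2(FPKM + 1) over the 9 libraries) were Arc (0.989), Chac1 (0.986), Zkscan5 (0.983), Bag3 (0.982) and Dnaja1 (0.980). Arc is an activity-induced gene of neurons, Chac1 is an ATF4 target that breaks down glutathione, Bag3 is a co-chaperone of HSP70 and Dnaja1 an HSP40 family member. Their mean levels at 1 h, 6 h and in control cells were 126, 6.51 and 2.45 FPKM for Arc, and 95.4, 13.8 and 11.4 FPKM for Chac1. Zkscan5 had 11.1, 3.64 and 3.93 FPKM, Bag3 479, 74.2 and 64.2 FPKM, and Dnaja1 507, 136 and 121 FPKM in that order of groups. With 9 libraries in 3 groups, such a correlation mostly reflects the high level at 1 h, and all 6 genes had their 3 highest values in the 1 h libraries.

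**Figure D2:**
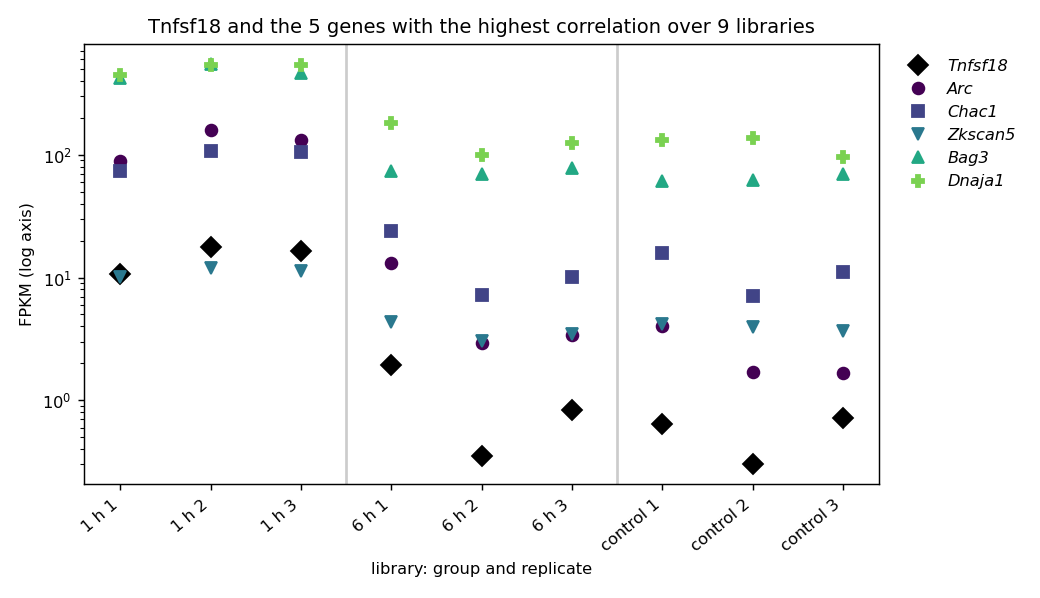
FPKM (log axis) of Tnfsf18 and the 5 genes most like it in each library (x axis, group and replicate). All 6 genes were highest in the 1 h libraries, and 6 h replicate 1 held more Tnfsf18, Arc, Chac1, Zkscan5 and Dnaja1 than the other 6 h libraries.

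The groups of the other 3 ligands overlapped in every comparison. Tnfsf12 (TWEAK, the ligand of Tnfrsf12a) was the most abundant ligand, with 28.4, 31.1 and 38.5 FPKM at 1 h, 31.4, 53.3 and 31.3 FPKM at 6 h, and 34.8, 27.5 and 31.3 FPKM in control cells. The highest value was that of 6 h replicate 2, and its log2 differences were 0.06 at 1 h and 0.26 at 6 h against control (SE 0.22 each). The locus (chromosome 11, 69686240 to 69696098) also holds the overlapping gene Tnfsfm13 on the same strand, at 0.60 to 1.96 FPKM, and an antisense gene, Tnfsf13os, and how reads were divided among them is uncertain. Nat14 (0.982), Serf2 (0.977) and Slc50a1 (0.964) had the patterns most like it.

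Tnfsf9, the ligand of the T cell co-stimulatory receptor Tnfrsf9, had 5.64, 4.83 and 4.17 FPKM at 1 h, 5.68, 4.42 and 5.64 FPKM at 6 h, and 9.09, 4.18 and 4.17 FPKM in control cells. Control replicate 1 stood above the other 8 libraries, which lay between 4.17 and 5.68 FPKM. That library also had the highest endothelial sum, and of the 3 genes most like Tnfsf9, Ramp2 (0.923), Sox18 (0.915) and Tmsb15l (0.905), the first and second are known in endothelial cells. Ramp2 stood at 21.4 FPKM and Sox18 at 8.93 FPKM there, beside at most 9.55 and 2.23 FPKM in the other libraries, and a part of endothelial cells in Tnfsf9 was not tested. Its log2 differences were -0.14 at 1 h and -0.06 at 6 h against control and 0.09 between 6 h and 1 h (SE 0.26 each). Without control replicate 1 the differences from control were 0.18 at 1 h and 0.26 at 6 h. Median-of-ratios scaling also turned the sign of the first and the last, and quantile normalization that of the second.

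Tnfsf13b (BAFF, a survival factor of B cells) was the least abundant ligand outside Tnfsf18, with 1.44, 1.08 and 1.63 FPKM at 1 h, 1.45, 1.5 and 1.67 FPKM at 6 h, and 1.89, 0.86 and 1.1 FPKM in control cells. Its groups overlapped, with log2 differences of 0.08 at 1 h and 0.18 at 6 h (SE 0.20 each) against control. Macrophages are a known source of this ligand, and in the 4 libraries with the highest macrophage sums it lay between 1.08 and 1.63 FPKM, beside 0.86 to 1.89 FPKM in the other 5. Sema4a (0.931), Loxl2 (0.911) and Cd1d1 (0.894) had the patterns most like it.

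Among the receptors, Tnfrsf12a (Fn14, the receptor of Tnfsf12, known for its induction by growth factors and injury) led in every group, with 195, 247 and 322 FPKM at 1 h, 386, 238 and 362 FPKM at 6 h, and 359, 325 and 288 FPKM in control cells. By its mean over the libraries it stood at percentile 98.5 of all genes with values. The groups overlapped, and its log2 difference from control was -0.37 at 1 h (SE 0.24), beside a median of -0.17 over all genes. At 6 h the difference from control was -0.01 (SE 0.24), which turned positive with median-of-ratios scaling. Ogfrl1 (0.940), Zcrb1 (0.937) and Tpd52l1 (0.931) had the patterns most like it.

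Tnfrsf1a, the death-domain receptor through which TNF acts on most cells, had 88.3, 75.6 and 79.2 FPKM at 1 h, 66.9, 97.2 and 58.8 FPKM at 6 h, and 80.3, 78.1 and 67.9 FPKM in control cells. It was the steadiest of the 9 genes, its highest library being 1.65 times its lowest, and the groups overlapped throughout. The log2 differences from control were 0.10 at 1 h and -0.05 at 6 h (SE 0.19 each). H6pd (0.914) and Il18bp (0.909) were among the 3 genes with the patterns most like it.

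Tnfrsf1b, the second TNF receptor, which lacks a death domain, had 11.1, 8.04 and 9.70 FPKM at 1 h, 19.3, 19.1 and 15.3 FPKM at 6 h, and 15.1, 10.4 and 12.7 FPKM in control cells. The 6 h libraries did not overlap the 1 h libraries, and the lowest of them, 15.25 FPKM, was just above the highest control, 15.10 FPKM. Its means were 17.9 ± 2.3 FPKM at 6 h, 9.60 ± 1.51 FPKM at 1 h and 12.7 ± 2.4 FPKM in control cells (SD, n = 3 each). The log2 difference was 0.83 (SE 0.18) for 6 h against 1 h, 0.47 for 6 h and -0.37 for 1 h against control (SE 0.18 each), and all 3 kept their sign under the 17 alternatives. Each 1 h library was below the control library of the same number, though a pairing by number is not established. Tnfrsf1b is also made by macrophages, whose marker sums were 64.3, 204 and 280 FPKM at 1 h, 286, 252 and 50.7 FPKM at 6 h, and 66.8, 59.5 and 106 FPKM in control cells, and their part in these values was not tested. Zfpl1 (0.988), Gtf2h3 (0.973) and Rfx1 (0.962) had the patterns most like it.

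Fas, the death receptor of Fas ligand and a known p53 target, had 19.5, 9.90 and 9.46 FPKM at 1 h, 5.06, 5.51 and 5.12 FPKM at 6 h, and 7.28, 11.0 and 8.43 FPKM in control cells. All 6 h libraries stood below all 1 h and all control libraries, and the 1 h and control libraries overlapped. The means were 5.23 ± 0.24 FPKM at 6 h and 8.91 ± 1.92 FPKM in control cells (SD, n = 3 each). The log2 difference was -1.09 for 6 h against 1 h, -0.65 for 6 h and 0.44 for 1 h against control (SE 0.26 each). The signs held under the 17 alternatives, and without 1 h replicate 1 the 1 h difference was 0.13. Il15ra (0.978), Antxr1 (0.978) and Sash1 (0.939) had the patterns most like it.

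Tnfrsf11b (osteoprotegerin, a secreted decoy receptor for Tnfsf11 and Tnfsf10) varied more within groups than between them, with 4.01, 12.5 and 23.7 FPKM at 1 h, 9.60, 5.25 and 8.85 FPKM at 6 h, and 7.48, 3.64 and 36.4 FPKM in control cells. Its highest library, control replicate 3, was also the one with the highest Sertoli sum, and the part of Sertoli cells in this value was not tested. The log2 differences from control were 0.06 at 1 h and -0.39 at 6 h (SE 0.76 each), and without control replicate 3 they were 0.92 and 0.47. Wls (0.976), Cx3cl1 (0.960) and Creb3l2 (0.946) had the patterns most like it.

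The order of mean levels in control cells was Tnfrsf12a, Tnfrsf1a, Tnfsf12, Tnfrsf11b, Tnfrsf1b, Fas, Tnfsf9, Tnfsf13b and Tnfsf18. The libraries of neighbours did not overlap between Tnfrsf12a and Tnfrsf1a, Tnfrsf1a and Tnfsf12, Tnfsf9 and Tnfsf13b, and Tnfsf13b and Tnfsf18. At 1 h Tnfsf18 had rank 4 in this order, above Tnfrsf11b and Fas by its mean but overlapping both, and at 6 h it was last.

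**Figure D3:**
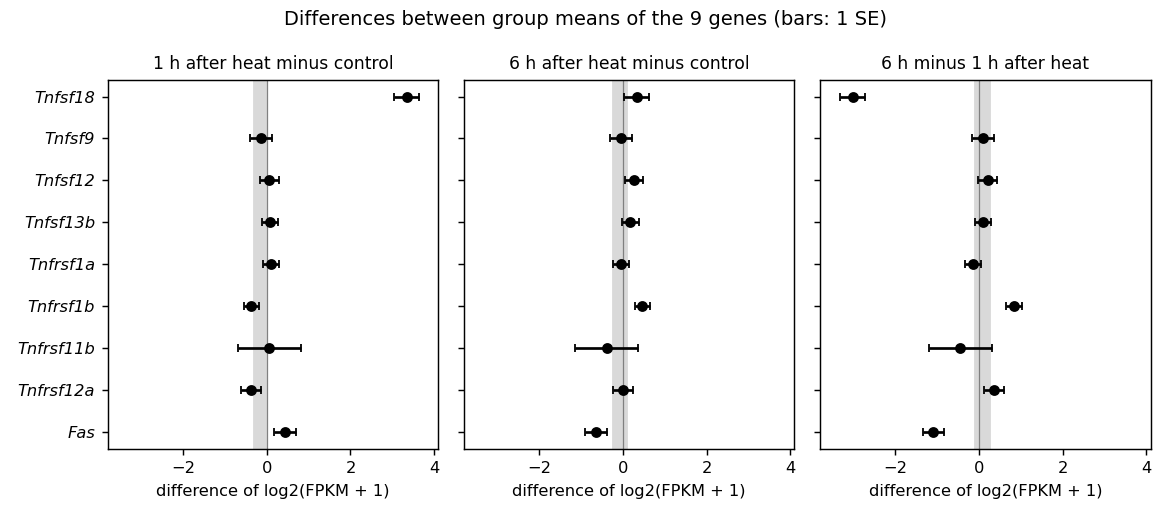
Differences of group means on the log2(FPKM + 1) scale (x axis) for each gene (y axis) in the 3 comparisons, with bars of 1 SE and a grey band from the lower to the upper quartile of all 11460 genes. Tnfsf18 stood at 3.35 at 1 h against control and -3.02 at 6 h against 1 h, while Tnfsf9, Tnfsf12, Tnfsf13b and Tnfrsf1a lay within or next to the band.

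Counted by overlap, 1 of the 9 genes at 1 h stood above all controls and 0 below, beside 4.49% and 21.4% of all genes. Against control, 1 was above and 1 below at 6 h, beside 1.89% and 5.32%, and at 6 h against 1 h 1 was above and 2 below, beside 15.2% and 4.97%. The median log2 difference of the 9 genes was 0.06, -0.01 and 0.09 in the 3 comparisons, beside -0.17, -0.06 and 0.09 over all genes. After median-of-ratios scaling the medians were 0.22, 0.04 and -0.02 for the 9 genes, beside -0.01, -0.02 and -0.01 over all genes.

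The binding partners of the 9 genes were scarce. All 10 were below the filter of 1 FPKM in at least 3 libraries and were not tested. Tnfrsf18, the receptor of Tnfsf18, had 0.46, 0.53 and 1.14 FPKM at 1 h, 0.81, 0.98 and 0.46 FPKM at 6 h, and 0.64, 0.46 and 0.43 FPKM in control cells, an estimated 8 to 21 reads per library, so the ligand stood at many times the level of its receptor at 1 h alone. Tnfrsf9, the receptor of Tnfsf9, had 1.66 FPKM in 1 h replicate 1 and 0.35 to 0.79 FPKM elsewhere. Tnfrsf13b, Tnfrsf13c and Tnfrsf17, the receptors of Tnfsf13b, reached at most 0.14, 0.14 and 0.20 FPKM.

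Ligands of the receptors were as low. Tnf ranged from 0.03 to 0.55 FPKM and Lta from 0.15 to 0.72 FPKM, while both of their receptors were well above the filter. Fasl, the ligand of Fas, was listed at 0 in most libraries and at 0.03 FPKM in the others, and Tnfsf11 reached at most 0.02 FPKM. Tnfsf10, a death ligand, had 1.51 and 1.12 FPKM in 6 h replicates 2 and 3 and at most 0.33 FPKM elsewhere. Tnfsf12 and Tnfrsf12a were thus the ligand and receptor pair of this set with both genes above the filter in all libraries.

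**Figure D4:**
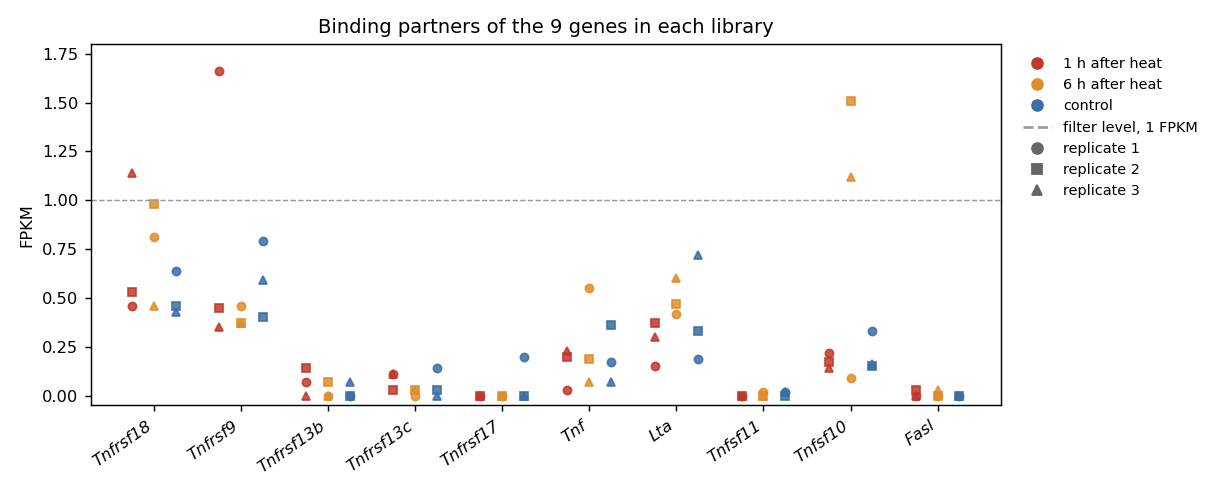
FPKM (y axis) of the 10 binding partners in each library, coloured by group with replicates as symbols, and a dashed line at 1 FPKM. The highest values were 1.66 FPKM for Tnfrsf9 and 1.51 FPKM for Tnfsf10, and Fasl and Tnfsf11 lay at or near 0.

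The rest of the system was counted over 4 lists with 84 genes, chosen with earlier results of these data known, of which 82 had values and 57 were tested. At 1 h against control 1 was called higher and 0 lower. In the 2 comparisons of 6 h, with control and with 1 h, 0 were called (limma). Percentages called over all genes were 0.157, 0 and 0.279. An unadjusted p below 0.05 in limma was found for 2 higher and 2 lower at 1 h against control (2.76% and 8.05% of all genes), 0 and 1 at 6 h against control (1.27% and 3.35%), and 5 and 9 at 6 h against 1 h (8.45% and 3.19%).

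The 1 call was Tnfaip6, a hyaluronan-binding protein induced by TNF. It had 156, 129 and 144 FPKM at 1 h, 42.6, 14.6 and 15.5 FPKM at 6 h, and 20.5, 22.4 and 7.24 FPKM in control cells. Its log2 difference at 1 h was 3.16 (SE 0.46, limma adjusted p = 0.0389), and the 1 h libraries stood above all others. Of 17 alternatives 10 ended the call, among them leaving out any 1 h library, any control library or 6 h replicate 3. Over all 17 the limma adjusted p lay between 0.00914 and 0.197 and the log2 difference between 2.68 and 3.43. Its difference between 6 h and 1 h was -2.68 with a limma adjusted p of 0.0592.

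Of 14 other ligands 12 had values and 3 were tested, Tnfsf15, Tnfsf13 and Eda. Tnfsf15, the ligand of Tnfrsf25, was the most abundant of them, at 4.09 to 28.1 FPKM with a median of 11.5. Tnfsf13 (APRIL) ranged from 1.53 to 10.4 FPKM, the highest in control replicate 3, Eda (ectodysplasin) from 0.98 to 2.94 FPKM, and Tnfsf10 followed below the filter.

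Of 23 other receptors 8 were tested and 0 were called in any comparison (limma). At an unadjusted p below 0.05 there were also 0 in each, beside 1.27% to 8.45% of all genes by comparison and direction (limma). The most abundant were Ltbr, the lymphotoxin beta receptor (45.2 to 60.4 FPKM), Tnfrsf23, a decoy receptor of mouse (10.9 to 32.5 FPKM), Tnfrsf10b, the death receptor of Tnfsf10 (10.5 to 17.1 FPKM), and Eda2r, a receptor of ectodysplasin (7.07 to 17.9 FPKM). The list's median log2 difference at 1 h was -0.08, and 0.06 after median-of-ratios scaling and 0.05 after quantile normalization.

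Of 29 signalling genes 28 were tested and 0 were called in any comparison (limma). At an unadjusted p below 0.05 in limma, 0 were higher and 1 lower at 1 h against control (2.76% and 8.05% of all genes). At 6 h these counts were 0 and 1 against control (1.27% and 3.35%), and 5 and 2 against 1 h (8.45% and 3.19%). Ripk3 and Mlkl, the kinase and the effector of necroptosis, were present throughout at 31.5 to 71.8 and 13.4 to 24.7 FPKM. Tab2, an adaptor of the kinase TAK1, had 20.3 to 38.7 FPKM and Rbck1, a subunit of the linear ubiquitin ligase, 14.6 to 22.8 FPKM. At 1 h, 11 of the 28 genes (39.3%) stood below all controls and 0 above, beside 21.4% and 4.49% of all genes, and the median log2 difference was -0.20 beside -0.17 over all genes. After median-of-ratios scaling that median was -0.04.

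All 18 genes known to be induced by TNF were tested. At 1 h their median log2 difference was 0.07 with 1 called, beside a median of -0.17 and 0.157% called over all genes (limma). At 6 h against 1 h their median was -0.45 with 0 called, beside 0.09 and 0.279% over all genes. An unadjusted p below 0.05 in limma was found for 7 lower and 0 higher at 6 h against 1 h, beside 3.19% and 8.45% of all genes. The median at 1 h was 0.24 after median-of-ratios scaling and 0.22 after quantile normalization, with 14 of the 18 genes above 0 in each and 10 without rescaling. The most abundant were the chemokines Ccl2 and Cxcl1, Tnfaip6, and Tnip1, an inhibitor of NF-kappaB signalling. Ccl2 had 633, 218 and 176 FPKM at 1 h, 41.4, 82.4 and 93.7 FPKM at 6 h, and 92.0, 1017 and 79.5 FPKM in control cells. Cxcl1 was also highest in control replicate 2, at 199 FPKM, beside 1.24 to 122 FPKM elsewhere, and Tnip1 ranged from 32.0 to 61.4 FPKM.

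**Figure D5:**
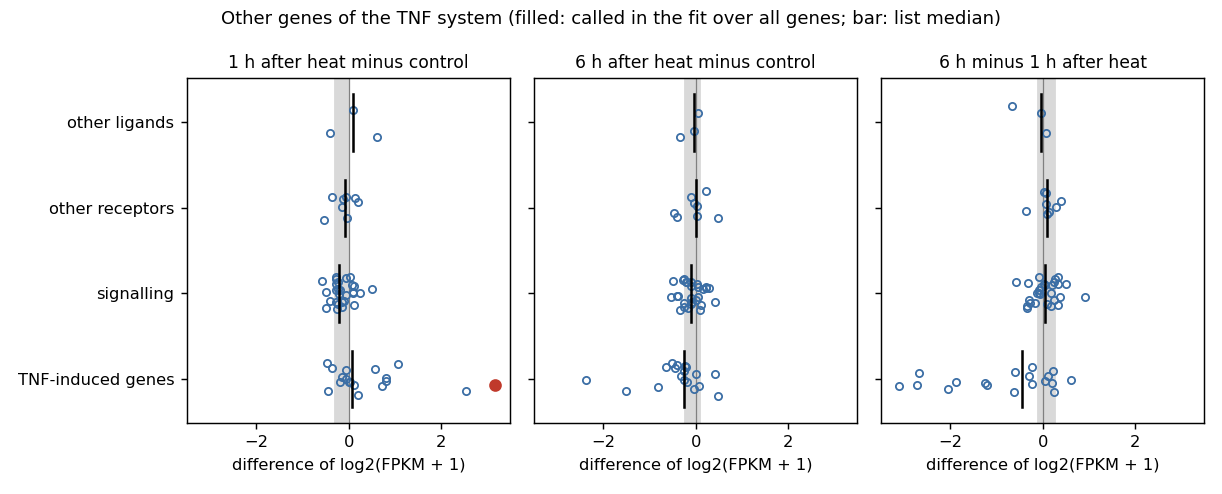
Differences of group means on the log2(FPKM + 1) scale (x axis) for the tested genes of 4 lists (y axis) in the 3 comparisons, with a bar at each list's median and a grey band from the lower to the upper quartile of all genes. The filled point, Tnfaip6 at 3.16, is the call at 1 h.

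The authors' deposited table lists a log2 fold change of 4.76 for Tnfsf18 at 1 h against control, 0.90 at 6 h against control and -3.86 at 6 h against 1 h. Of the 9 genes, 6, 5 and 7 have in the authors' deposited table a q-value of at most 0.001 in these comparisons, beside 55.2%, 44.1% and 48.7% of the genes the authors compared. With a change of at least 2-fold added, the authors' deposited table keeps 1, 1 and 2 of them, beside 7.84%, 6.45% and 4.5%. The authors' deposited table keeps Tnfsf18 at 1 h, Tnfrsf11b at 6 h, and Tnfsf18 and Fas at 6 h against 1 h, so Tnfrsf11b is kept there although its control values run from 3.64 to 36.4 FPKM.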

How the data were processed

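Per the file headers, the authors deposited FPKM for 9 libraries, log2 fold changes, and DEGseq p-values and q-values. Bowtie2 2.2.5, HISAT2 2.0.4, RSEM 1.2.12 and the build mm10 are named in the submitters' processing notes, with no roles. Strand-specificity: not given in the sources used here, so reads of overlapping antisense genes cannot be told apart.

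The table lists 20717 genes, 17559 of them with values. A gene was tested if 3 or more libraries had at least 1 FPKM (11460 genes), on log2(FPKM + 1) with limma 3.58.1 (R 4.3.3, variance trend, all libraries in 1 fit, 6 residual degrees of freedom, two-sided), adjusted by Benjamini-Hochberg over all tested genes and called below 0.05. The code was tested on simulated data. Since FPKM are relative, strong transcripts lower the others. The planned design allowed for RPKM or counts; the table holds FPKM.

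The 9 genes, the lists, markers and motifs were chosen with earlier results of these data known. Named are the 9 genes, their binding partners, the called and the 4 most abundant genes of each list, and the 5 genes most like Tnfsf18 or 3 most like each other gene, of which 1 is not reported here. Depth was estimated from the steps between low FPKM values, of which 88.0% to 92.3% lay within 0.2 of a whole read (40% by chance). This was checked on low values alone, so whole counts were not established for all genes, and no count test was made. Same-numbered 1 h and control libraries deviated together from their group means (correlations 0.194, 0.149 and 0.262), and so did 1 h replicate 1 and control replicate 2 (0.171). A pairing by number is therefore not established by the data or by the labels. The fit behind the values has no block for pairs, which was run as an alternative.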

Additional observations from a re-analysis of the deposited data

Results flagged for a closer look

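The response of Tnfsf18 at 6 h differed from that at 1 h: the difference between 6 h and 1 h was -3.02 on the log2(FPKM + 1) scale (SE 0.30), and all 3 libraries at 6 h were below all 3 at 1 h. The gene was chosen with this value known.

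Tradd, the adaptor that binds the death domain of Tnfrsf1a, was marked because its libraries moved in opposite directions, and it was named after its values were seen. It had 9.03, 9.85 and 8.93 FPKM at 1 h, all below the controls, 11.5, 12.5 and 11.9 FPKM at 6 h, all above them, and 11.5, 10.7 and 11.2 FPKM in control cells. The lowest 6 h library, 11.54 FPKM, was just above the highest control, 11.45 FPKM. Its log2 difference from control was -0.24 (SE 0.12) at 1 h, beside a median of -0.17 over all genes, and 21.4% of all genes stood below all controls there. At 6 h the difference from control was 0.10 (SE 0.12), and neither was called (limma adjusted p of 0.505 and 0.904). For 6 h against 1 h Tradd differed by 0.34 (SE 0.12), which did not pass in limma over all genes (adjusted p = 0.353).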

How the results depend on the processing

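The 17 alternatives changed the pseudocount, filter, scaling, variance trend, replicate block and libraries. At a pseudocount of 0.1 FPKM the log2 differences of Tnfsf18 were 4.57 at 1 h against control and -3.96 at 6 h against 1 h, which moved them by more than the SD between replicates. Genes called at 1 h against control, 18, numbered 10 with no filter, 31 with quantile normalization and 47 with only the libraries of the comparison. Leaving out 1 library gave 8 to 52: 10, 8 and 8 without 1 h replicates 1, 2 and 3, 30 and 52 without 6 h replicates 1 and 2, and 11 without control replicate 1. Without control replicate 3 and 6 h replicate 2 together there were 23. For 6 h against control, 0 genes became 0 to 25, the highest without 6 h replicate 1. For 6 h against 1 h, 32 genes became 55 with quantile normalization and 8 to 104 without 1 library: 18, 11 and 8 without 1 h replicates 1, 2 and 3, and 104 and 18 without 6 h replicates 1 and 3. In the 4 lists the 1 call at 1 h became 0 with the pseudocount of 0.1, with no filter and without both libraries, and 0 to 1 without 1 library. At 6 h against 1 h 0 became 1, Tnfaip6, with median-of-ratios scaling, and 0 to 1 without 1 library, the 1 being without 6 h replicate 1 or control replicate 3. The causes were not tested. With the replicate block 15 genes were called at 1 h against control and 23 at 6 h against 1 h, and it changed no call of the 9 genes or of the list genes. Libraries of the same number did not deviate together at 6 h against control (-0.178, 0.041 and 0.014) or against 1 h (-0.269, -0.104 and -0.350). Few reads lie behind values below 1 FPKM, which limits the binding partners and Tnfsf18 outside 1 h.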

Other observations

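Inflammatory genes of the TNF-induced list stood out in single libraries, and those named here were chosen after their values were seen. Il6, a cytokine, had 128, 25.4 and 21.5 FPKM at 1 h, 14.2, 1.45 and 6.21 FPKM at 6 h, and 7.08, 15.0 and 2.04 FPKM in control cells. Icam1, an adhesion molecule, had 92.5, 43.1 and 42.4 FPKM at 1 h, 13.3, 42.8 and 20.3 FPKM at 6 h, and 29.0, 31.7 and 33 FPKM in control cells. Tnfaip3, a brake on NF-kappaB, had 29.6, 17.2 and 8.38 FPKM at 1 h, 5.00, 1.19 and 7.04 FPKM at 6 h, and 7.51, 11.4 and 4.41 FPKM in control cells. All 3 genes were highest in 1 h replicate 1, the library in which Fas and Tnfrsf9 were also highest and in which Tnfsf18 was the lowest of the 1 h libraries. At 1 h against control their log2 differences were 2.54, 0.81 and 1.06, with limma adjusted p of 0.392, 0.498 and 0.504.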
